A study of Mus musculus with 27 samples.

Results

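Lamin B1 regions lost by 24 h were the merged lamin B1 regions that held a peak in untreated NMuMG cells and none after 24 h of TGF-β. Peaks of the 0 h, 8 h and 24 h lamin B1 lists were joined where they touched or overlapped, which gave 13306 regions, and 1904 of them (14.3%) met this rule. In all, 4601 regions had a 0 h peak, and the other 2697 of these also held a 24 h peak. Of the 1904, 1002 held a peak at 0 h only, and 902 held peaks at 0 h and 8 h and lost them between 8 h and 24 h. The regions were chosen by the presence of peaks in these lists, so presence at each time and the 0 h and 8 h scores are given only as a description.

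NMuMG cells come from normal mouse mammary gland epithelium, and TGF-β drives them through an epithelial-to-mesenchymal transition (EMT). Cells were left untreated (0 h) or treated with TGF-β, for which the labels give 1 to 5 ng/ml, for 8 h or 24 h. ChIP-seq of lamin B1 gave 1 library per time point, as did ATAC-seq, which maps open chromatin. RNA-seq gave 2 libraries per time point in parental cells, in cells infected with a control shRNA and in cells with a lamin B1 knockdown (KD) shRNA, the infected cells selected with puromycin. Parallel ChIPs were mixed into each ChIP library, so no value from the peak lists has an error between replicates or a test, and the intervals on shares of regions (95% Wilson) cover counting only.

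Lamin B1 is a structural protein of the nuclear lamina, the meshwork under the inner nuclear membrane, and is best known for contacts with silent, A/T-rich chromatin at the nuclear edge. A pool of lamins also lies in the nuclear interior, and the chromatin of this ChIP was sheared gently so that mostly open, euchromatic fragments were sequenced. Promoters of widely used genes often lie in CpG islands, stretches of high G/C content in which the CG dinucleotide has not been depleted, while most of the genome has lost CG.

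To show what the lost regions were made of, the central 300 bases of 5 lost regions and of 2 regions kept at all times follow, read on the plus strand of mm9 (NCBIM37), with every CG in capitals. They are high-scoring regions of their class whose central window holds no annotated UTR. The first lies in the coding exon of B3gnt1, a glycosyltransferase gene, the second 5′ of Ndufaf3, a complex I assembly factor gene, the third in an intron of Fibp beside Ctsw, the fourth in an intron of Afap1l2, and the fifth, a region with a 0 h peak only, in an intron of Sufu. The last pair belongs to regions with peaks at 0 h, 8 h and 24 h, in an intron of Prdm15 near its start and outside genes on chromosome 1. The lost region at B3gnt1 lay 775 bp from a 24 h peak.
B3gnt1, lost, chr19:5039031-5039330: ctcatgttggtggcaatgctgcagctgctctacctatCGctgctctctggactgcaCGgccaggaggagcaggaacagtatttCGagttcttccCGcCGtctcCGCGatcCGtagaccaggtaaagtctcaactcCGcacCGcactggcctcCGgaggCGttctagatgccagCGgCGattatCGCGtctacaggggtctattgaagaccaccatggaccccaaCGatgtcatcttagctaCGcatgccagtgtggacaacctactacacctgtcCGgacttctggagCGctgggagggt
Ndufaf3, lost, chr9:108469974-108470273: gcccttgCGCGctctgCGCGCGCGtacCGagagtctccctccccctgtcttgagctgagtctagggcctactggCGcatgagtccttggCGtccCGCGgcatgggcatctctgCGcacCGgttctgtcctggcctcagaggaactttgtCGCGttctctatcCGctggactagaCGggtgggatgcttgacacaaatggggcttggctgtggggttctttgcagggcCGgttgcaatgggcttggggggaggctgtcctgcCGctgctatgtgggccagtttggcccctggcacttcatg
Fibp intron, lost, chr19:5464456-5464755: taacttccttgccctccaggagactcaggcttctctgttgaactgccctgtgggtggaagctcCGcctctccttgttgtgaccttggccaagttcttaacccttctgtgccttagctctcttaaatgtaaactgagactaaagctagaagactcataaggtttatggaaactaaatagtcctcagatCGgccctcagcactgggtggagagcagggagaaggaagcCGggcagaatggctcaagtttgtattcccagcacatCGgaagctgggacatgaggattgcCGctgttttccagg
Afap1l2 intron, lost, chr19:57018178-57018477: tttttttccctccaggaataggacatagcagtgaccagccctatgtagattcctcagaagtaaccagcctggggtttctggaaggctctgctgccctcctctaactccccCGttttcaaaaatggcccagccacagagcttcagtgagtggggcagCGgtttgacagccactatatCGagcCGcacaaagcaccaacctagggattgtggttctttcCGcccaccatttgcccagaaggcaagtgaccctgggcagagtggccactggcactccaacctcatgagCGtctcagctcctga
Sufu intron, lost, chr19:46552971-46553270: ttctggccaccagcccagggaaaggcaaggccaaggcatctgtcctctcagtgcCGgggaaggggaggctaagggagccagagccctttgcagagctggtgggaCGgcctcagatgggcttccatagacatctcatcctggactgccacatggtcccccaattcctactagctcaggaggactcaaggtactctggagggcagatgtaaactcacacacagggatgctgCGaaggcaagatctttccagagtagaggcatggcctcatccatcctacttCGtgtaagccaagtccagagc
Prdm15, kept, chr16:98072962-98073261: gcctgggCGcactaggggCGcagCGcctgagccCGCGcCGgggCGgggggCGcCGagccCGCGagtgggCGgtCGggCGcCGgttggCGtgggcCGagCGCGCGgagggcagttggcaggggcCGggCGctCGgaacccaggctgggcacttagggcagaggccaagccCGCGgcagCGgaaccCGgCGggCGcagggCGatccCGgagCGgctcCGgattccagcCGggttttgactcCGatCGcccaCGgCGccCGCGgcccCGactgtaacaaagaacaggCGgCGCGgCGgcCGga
Chromosome 1, kept, chr1:88384094-88384393: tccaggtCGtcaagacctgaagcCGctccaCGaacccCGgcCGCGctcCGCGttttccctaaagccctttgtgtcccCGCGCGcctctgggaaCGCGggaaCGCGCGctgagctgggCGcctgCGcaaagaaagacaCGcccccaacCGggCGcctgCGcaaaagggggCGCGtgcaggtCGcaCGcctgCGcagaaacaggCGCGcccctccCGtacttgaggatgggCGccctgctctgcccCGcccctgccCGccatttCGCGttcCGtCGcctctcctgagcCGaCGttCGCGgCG
The 3 intronic windows of lost regions held 5, 6 and 4 CG dinucleotides, against 20 in the B3gnt1 window and 19 in the Ndufaf3 window. The Prdm15 and chromosome 1 windows held 46 and 42. Windows of the same kind that are not shown varied more. Among lost regions, one at the start of Oxct1 and BC037032 held 25 CG and one in Mus81 held 7. A window with a 0 h peak only, outside genes on chromosome 19, held 26. The kept window at AY036118 held 40.

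The same contrast held over whole classes. The central 300 bases of a lost region held a median of 15 CG (quartiles 8 and 25), against 34 (26 and 40) in the 2431 regions present at all times and 25 over all 13306 regions. Regions with a 0 h peak only had a median of 10, and those with 0 h and 8 h peaks 21. The ratio of observed to expected CG was 0.567 in lost regions and 0.901 in regions present at all times, as medians. Mean G/C content over the whole region was 57.5% ± 4.46 (SD, n = 1904 regions) against 62.3% ± 4.18 (n = 2431), in a genome of 41.8% G/C. Lost regions were thus G/C-rich against the genome and poorer in CG than the regions that kept their 24 h peak. Regions with an 8 h peak only, which also had none at 24 h, came near the lost ones. They held a median of 18 CG (quartiles 10 and 28), with a median CG ratio of 0.637 and a mean G/C content of 58.97%. Among regions at a transcription start site (TSS) alone, the mean G/C content was 59.5% for lost regions and 62.5% for those present at all times, and the CG ratio 0.781 and 0.913.

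Lost regions lay at promoters less often than kept ones. Of the 1904, 901 (47.3%, interval 45.1 to 49.6%) came within 500 bp of an annotated TSS, against 82.6% (81.0 to 84.1%) of the regions present at all times, 73.3% of the 2574 regions gained by 8 h and kept, and 57.9% of all merged regions. Regions with a 0 h peak only reached 34.0%, and those that still had a peak at 8 h reached 62.1%. A low share was not particular to lost regions. It was 41.3% in regions with an 8 h peak only, which also had none at 24 h, and 51.9% in those with a 24 h peak only. Exons further from any TSS held 529 lost regions (27.8%, against 9.34% of regions present at all times), and introns further away held 159 (8.35%, against 0.987%). Of the regions with an 8 h peak only, 29.8% lay in such exons and 7.43% in such introns. Another 180 lay 500 to 2500 bp from a TSS, and 135 lay outside genes. Where a lost region was at a TSS, its centre lay a median of 191 bp downstream of it, and in 77.7% of them the centre was downstream, against 82.7% of regions present at all times.

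**Figure D1:**
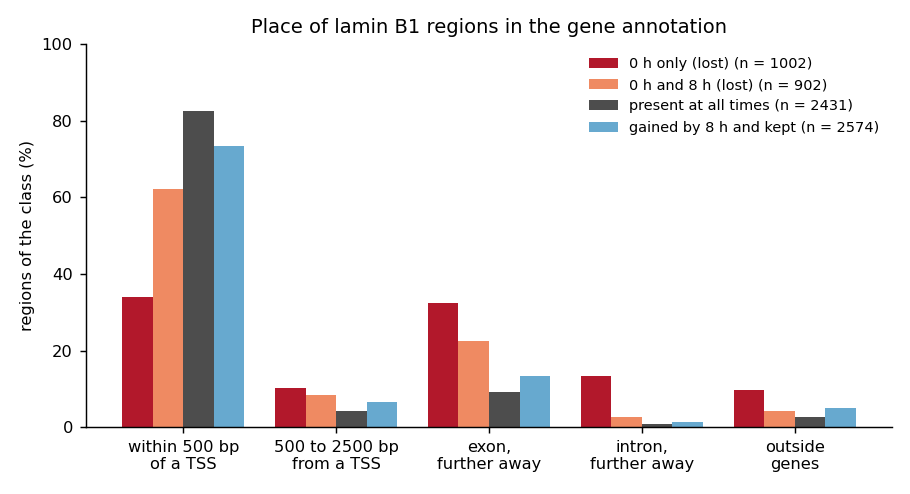
Place of lamin B1 regions in the gene annotation: bars give the percent of the regions of each class in each place, for the 2 kinds of lost region (0 h only, and 0 h and 8 h) and for regions present at all times or gained by 8 h and kept. The 0 h only regions have the shortest bar at the TSS (34.0%) and the tallest in exons and introns further away.

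Short sequence motifs were counted on both strands of the central 300 bases, as descriptions of the letters. The GC box, GGGCGG, the core bound by Sp and KLF factors, was present in 38.9% of lost regions, against 68.4% of regions present at all times and 53.7% of all merged regions. CAGACA, a form of the element bound by Smad factors, which carry the TGF-β signal, was in 22.6%, against 11.2% and 16.5%. CCAAT, the NF-Y box, was in 21.6%, against 15.01% and 17.8%, and the AP-1 motif TGANTCA in 5.09%, against 2.39% and 3.17%. CAGGTG, the E-box of Snail and Zeb factors, which repress epithelial genes, was in 29.8%, against 22.8% and 27.1%. Regions with an 8 h peak only, which also had none at 24 h, had shares between or near these, with 43.8% for the GC box, 19.2% for CAGACA, 20.9% for CCAAT, 3.76% for TGANTCA and 30.8% for CAGGTG. At a TSS alone the order of lost regions and those present at all times was the same: CAGACA was in 16.1% of lost regions and 10.0% of regions present at all times, CCAAT in 21.6% and 14.7%, and the GC box in 56.0% and 70.8%. These motifs differ in base content, as the classes do, and its part in these shares was not tested.

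The score of a peak, which the deposited lists give without naming its unit and which is never under 50, was low in most lost regions at 0 h. Its median was 62.4 (quartiles 54.7 and 75.2), against 77.8 in the regions that kept a 24 h peak, and 144 lost regions (7.56%) reached 100, against 27.7% of the kept ones. With the 0 h regions in 4 bins of about equal size by 0 h score, 60.6% of those in the lowest bin were lost, then 49.1%, 36.5% and 19.3% in the highest. Regions with no 8 h peak made up 40.2% of the lowest bin and 5.39% of the highest, while the share lost only after 8 h stayed between 13.9% and 22.3%. Of the 902 regions with a peak at 8 h as well, 604 (66.96%) had a higher score at 8 h than at 0 h, with a median ratio of 1.17, against 83.3% and 1.52 in the regions present at all times. Over the 4 bins, mean G/C content was 57.0 to 58.1% in lost regions and 62.1 to 62.4% in kept ones, and 40.1 to 56.7% of lost regions and 76.5 to 84.3% of kept ones were at a TSS. The part of the score in these differences was not tested.

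**Figure D2:**
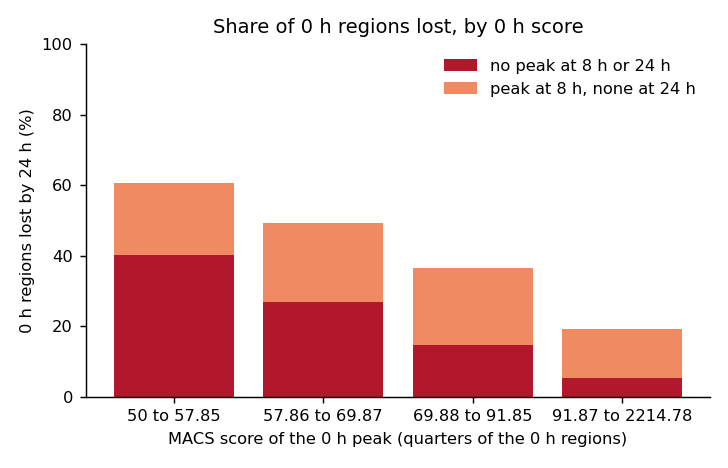
Share of 0 h regions lost by 24 h, by 4 bins of the 0 h MACS score (4601 regions): the stacked bars split the lost regions into those with no later peak and those with a peak at 8 h. The share falls from 60.6% in the lowest bin to 19.3% in the highest.

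At the edge of the rule, the lost region nearest to a 24 h peak was 2 bp from it (chr11:68199175-68200929, 0 h score 66.6), and the kept region with the lowest 24 h score had 50.03 (chr15:82817310-82818406, 0 h score 50.5). Of the 1904 regions, 96 (5.04%) had a 24 h peak within 1000 bp, 498 within 10 kb and 1563 (82.1%) within 100 kb, and the median distance was 27257 bp. Most lost regions thus had a 24 h peak within 100 kb, but few had one within 1000 bp. Regions with an 8 h peak only, which also had none at 24 h, had one within 10 kb in 20.4% and within 100 kb in 70.9%. Their median distance was 43516 bp.

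Chromosomes 15 and 19 held 281 and 268 lost regions, 14.8% and 14.1% of the total. Per 100 protein-coding genes this was 35.3 and 37.0 lost regions, whereas the other chromosomes held between 1.26 (chromosome 14) and 11.9 (chromosome 11). Both chromosomes already had more 0 h regions, 65.4 and 71.4 per 100 coding genes, and they also lost the largest shares of them, 53.9% (interval 49.6 to 58.2%) and 51.8% (47.5 to 56.1%), against 23.7% to 46.2% elsewhere. The excess was not particular to lost regions. Regions with an 8 h peak numbered 109.9 and 92.0 per 100 coding genes on chromosomes 15 and 19, against at most 58.4 elsewhere. Regions with a 24 h peak numbered 58.6 and 58.0, against at most 39.1. Other measures moved with these chromosomes. Their 0 h ATAC peaks numbered 63.9 and 57.0 per 100 coding genes, the highest values together with the 57.0 of chromosome 1, and the median FPKM of their tested genes was 20.2 and 21.2 in untreated cells against 9.78 to 14.5 on the rest. Their part in the number of lost regions was not tested.

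**Figure D3:**
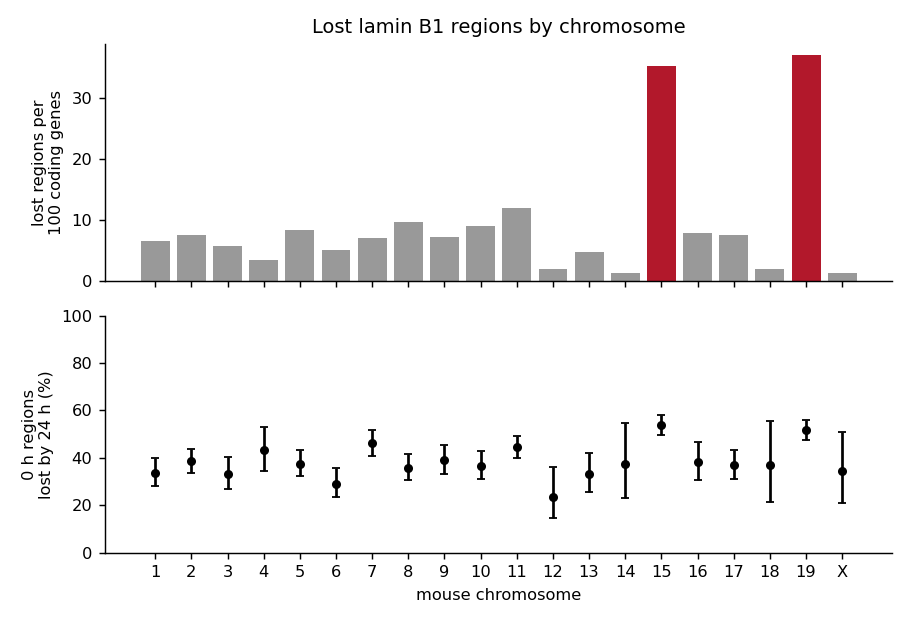
Lost lamin B1 regions by chromosome: the upper bars give lost regions per 100 protein-coding genes, and the lower points the percent of each chromosome's 0 h regions that were lost, with 95% Wilson intervals. Chromosomes 15 and 19 stand above 35 per 100 genes, and all others are under 12.

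The lost regions of these 2 chromosomes differed from the rest. Only 25.7% of their 549 lost regions were within 500 bp of a TSS, against 56.1% of the 1355 on the other chromosomes, while 38.3% lay in exons further away, against 23.5%. Without chromosomes 15 and 19, a choice made after seeing the data, the TSS share of lost regions (56.1%) was still below that of regions present at all times (84.1%), and mean G/C content was 58.5% against 62.8%.

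Lost regions were also counted in runs. No run count was made for kept regions, and how many runs the number and density of lost regions alone would give was not tested. Taken in order along the chromosome, with no kept 0 h region between them and at most 100 kb apart, they formed 1304 runs, and 340 runs of 2 or more held 940 regions (49.4%). The longest had 12 regions in 74.3 kb and lay wholly within Myh9, the gene of non-muscle myosin heavy chain IIA (chr15:77591346-77665667). A run of 8 lay in 25.3 kb of Plec, which encodes the cytolinker plectin (chr15:76015692-76041040). On chromosome 15 a run of 9 crossed 342 kb with the water channel genes Aqp2 and Aqp5 and with Tmbim6. Of the 12 longest runs, 6 were on chromosome 19 and 4 on chromosome 15.

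ATAC peaks overlapped fewer lost regions than kept ones at every time. In untreated cells 600 lost regions (31.5%, interval 29.5 to 33.6%) overlapped an ATAC peak, against 63.7% (61.7 to 65.6%) of regions present at all times 19.9% of regions with an 8 h peak only and 34.6% of all merged regions. With only peaks at or above the median score of each lamin B1 list, the 0 h share of lost regions was 48.01%. The share of kept regions under that cut is not given here, so 48.01% cannot be set against 63.7%. With all lamin B1 peaks, the share of lost regions at 8 h was 25.4% (against 51.7%). At 24 h, with the lamin B1 peak gone, it was 50.7% (against 85.3%). The classes lay closer together at a TSS, where 57.4% of lost regions and 69.8% of those present at all times overlapped an ATAC peak at 0 h, and 82.8% and 91.8% did at 24 h. In exons further away the shares of lost regions were 6.24% at 0 h and 15.7% at 24 h. The rise from 0 h to 24 h depended on the length of the ATAC lists, which held 9782, 10340 and 33811 peaks: with the 9782 highest-scoring peaks of each list the share of lost regions was 31.5% at 0 h, 24.2% at 8 h and 28.2% at 24 h. Regions present at all times then had 63.7%, 49.8% and 56.2%. At equal length neither class had more ATAC overlap at 24 h than at 0 h, and at full length both did.

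**Figure D4:**
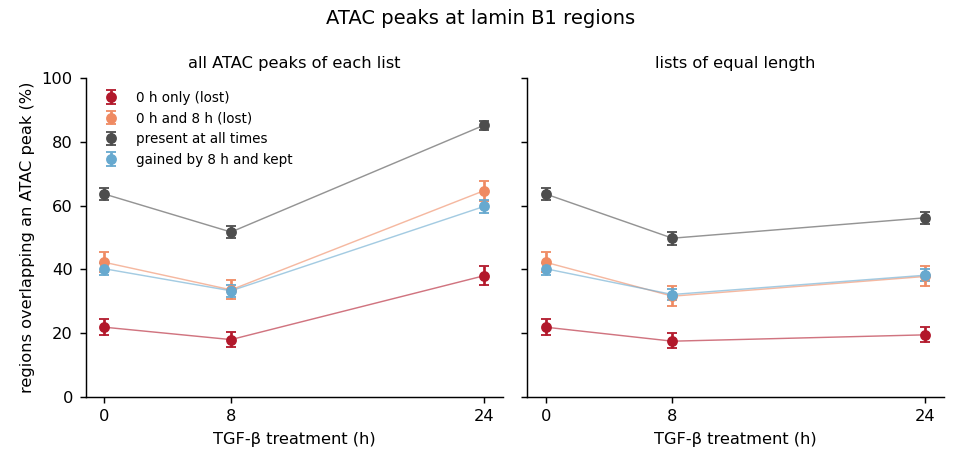
Percent of lamin B1 regions overlapping an ATAC peak at 0 h, 8 h and 24 h of TGF-β, with 95% Wilson intervals, using all ATAC peaks (left) or the same number of top-scoring peaks from each list (right). Every class rises at 24 h on the left, and on the right the 24 h shares are below those at 0 h.

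By time of ATAC overlap, 929 lost regions (48.8%) overlapped no ATAC peak at any time, 410 (21.5%) overlapped one at all 3 times, and 302 (15.9%) at 24 h only. Over all merged regions these shares were near, at 47.96%, 24.7% and 13.9%. In regions present at all times they were 14.1%, 46.2% and 16.8%. These patterns carry the unequal length of the ATAC lists.

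The lost regions with the highest 0 h scores were all still present at 8 h. The first was at Socs3, a feedback inhibitor of cytokine signalling (chr11:117827608-117831696, score 261 at 0 h and 275 at 8 h). Socs3 RNA was 17.99 and 17.1 FPKM in the 0 h libraries, 10.997 and 12.1 at 8 h, and 9.36 and 10.1 at 24 h, with no overlap between times. Socs3 RNA fell by 0.79 on the log2(FPKM + 1) scale at 24 h (SE 0.06, limma adjusted p = 3.36e-05), and in RNA from bulk cultures fewer cells with a transcript and less of it per cell cannot be told apart. The second was at Ints10, a subunit of the Integrator complex (scores 244 and 320), whose RNA was 23.8 and 23.5 FPKM at 0 h and 24.6 and 24.7 at 24 h (log2 difference 0.06, SE 0.04, limma adjusted p = 0.238). Slc35c1, the GDP-fucose transporter, followed (228 and 137), with 10.3 and 11.1 FPKM at 0 h and 8.23 and 8.62 at 24 h (log2 change -0.31, SE 0.05, limma adjusted p = 0.00177).

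Ankrd2, a muscle ankyrin repeat gene, had a region that scored 203 at 0 h and 81.1 at 8 h while its RNA was listed at 0 FPKM in the 4 libraries of 0 h and 8 h and at 0.0288 and 0.0323 at 24 h. Rbm14, an RNA-binding coactivator gene (191 and 124), was at 31.2 and 30.6 FPKM at 0 h and 25.4 and 23.5 at 24 h (log2 change -0.33, SE 0.05, limma adjusted p = 0.00078). Another 3 of the 10 were at B3gnt1 (775 bp from a 24 h peak), at Ndufaf3 and Mir425, and at Tbcc, a tubulin cofactor gene. Ndufaf3 fell by 0.25 (limma adjusted p = 0.00179), and B3gnt1 and Tbcc differed by -0.07 and -0.06 (limma adjusted p = 0.262 and 0.347). The remaining 2 of the 10 lay away from a TSS, in an exon of Plec and across the ends of Fibp and Ctsw (chr19:5462089-5467122, score 186 at 0 h and 63.2 at 8 h).

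Ctsw, which encodes cathepsin W, had the sharpest change beside one of these regions. Its RNA was 0.811 and 0.751 FPKM at 0 h, 34.5 and 26.9 at 8 h, and 104.6 and 100.6 at 24 h. Ctsw was 5.86 higher at 24 h than at 0 h on the log2(FPKM + 1) scale (SE 0.10, limma adjusted p = 1.85e-07). Its neighbour Fibp rose by 0.22 (SE 0.05, limma adjusted p = 0.0053), from 73.1 and 69.2 FPKM to 81.6 and 84.5.

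In all, 1102 annotated genes had a TSS within 500 bp of a lost region, 980 of them protein-coding, and 992 had a symbol in an RNA table. They are called member genes here. Of the 1102 genes, 986 had no 24 h lamin B1 peak from 2500 bp upstream to the 3′ end, and the rest still had one in that span. At 115 lost regions protein-coding genes started on both strands, so members can share a region, and whether the FPKM values were counted by strand is not given in the sources used here, which name strand-specific RNA profiles only for a genome browser view. The member genes were expressed in untreated cells at a median of 13.3 FPKM (quartiles 3.74 and 32.6), and 83.6% had at least 1 FPKM. Genes at regions present at all times had a median of 14.3 FPKM, those at regions gained by 8 h and kept 7.56, and genes with no region at the TSS 0.0419. At 24 h the member genes had a median of 12.1 FPKM, and 84.7% had at least 1 FPKM. Genes whose region was lost before 8 h had a lower median at 0 h (10.9 FPKM) than those whose region was lost after 8 h (14.4 FPKM). The group was thus expressed at all 3 times.

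The culture was checked against marker genes. The epithelial genes Krt8 (2031 and 2024 FPKM at 0 h) and Cdh1 (113 and 119) were high, but Epcam (0.383 and 0.319), Cldn4 (0.0923 and 0.147) and Cldn7 (0 and 0.0379) were at or near 0. The mesenchymal genes Vim (1371 and 1361), Fn1 (53.0 and 64.4) and Cdh2 (35.0 and 35.2) were also expressed at 0 h. By 24 h Fn1 (486 and 503) and Cdh2 (67.6 and 71.8) were higher and Vim (1199 and 1164) was lower. Of 27 genes of other cell types, 6 reached 1 FPKM in any parental library, the strongest being Cd14 (160 and 156 FPKM at 0 h, 45.1 and 46.7 at 24 h), and Adipoq and Csn2 were at 0 in all 6. Their summed FPKM was 184 and 177 at 0 h, 128 and 146 at 8 h, and 71.6 and 72.8 at 24 h, and their part in the results was not tested. Lmnb1 itself was at 36.9 and 36.3 FPKM at 0 h, 34.1 and 34.4 at 8 h, and 19.5 and 17.6 at 24 h in parental cells. In KD cells Lmnb1 was at 9.01 and 9.27 FPKM at 0 h against 29.2 and 36.5 in control cells, at 7.79 and 8.14 against 32.8 and 32.1 at 8 h, and at 4.37 and 7.52 against 18.4 and 17.9 at 24 h. No library of a KD group overlapped its control.

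Member genes were called at shares near those of all genes tested. Genes with at least 1 FPKM in 2 libraries of a table were tested with limma on log2(FPKM + 1), and an adjusted p under 0.05 over all genes was a call. Of the member genes, 845 entered this test in parental cells. At 24 h 603 of them (71.4%) were called, against 70.5% of the 11309 genes tested, 263 higher (31.1%, against 33.4%) and 340 lower (40.2%, against 37.1%). At 8 h 474 (56.1%) were called, against 54.5%, 179 higher (21.2%, against 22.4%) and 295 lower (34.9%, against 32.1%). After quantile normalization 225 members were higher and 244 lower at 8 h, where 3012 and 3043 of the 11309 genes were. The median log2 change of the member genes at 24 h was -0.06, against -0.02 over all genes tested, and 92 of them were called with a change of at least 1 on this scale, 36 higher and 56 lower, where 5.28% and 6.51% of all genes tested were. The shares were near the background in both directions.

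Of the 8 member genes with the largest rises at 24 h, Angptl2, Pdgfa, Col12a1 and Pltp encode secreted proteins. Angptl2, an angiopoietin-like secreted protein, was at 4.75 and 4.60 FPKM at 0 h, 27.0 and 21.3 at 8 h, and 53.8 and 50.2 at 24 h (log2 change 3.22, SE 0.10, limma adjusted p = 8.4e-07). Its region scored 54.7 at 0 h and 57.9 at 8 h. Pdgfa, a ligand of the PDGF receptors, went from 17.0 and 17.5 FPKM to 82.4 and 78.6 at 24 h (log2 change 2.16, SE 0.08, limma adjusted p = 1.25e-06), and it had reached 82.4 and 69.2 by 8 h. Its lost region was 360 bp from a 24 h peak. Col12a1, a fibril-associated collagen, rose from 3.55 and 4.54 FPKM to 17.3 and 18.8, and Pltp, the phospholipid transfer protein of plasma, from 2.43 and 2.22 to 11.7 and 13.3.

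The other large rises at 24 h were in genes of several roles. Gatsl3, a cytosolic arginine sensor of the mTORC1 pathway, rose from 0.486 and 0.507 FPKM to 13.2 and 11.5 (log2 change 3.16, SE 0.14, limma adjusted p = 2.58e-06). Adarb1, an enzyme that edits adenosine in RNA, rose from 1.24 and 1.33 to 15.5 and 15.01 (log2 change 2.83). Gadd45g, a stress-response gene, rose from 32.8 and 32.1 to 136 and 133, and Slc46a1, the proton-coupled folate transporter, from 2.65 and 2.49 to 13.4 and 13.02. At 8 h the list of largest rises also held Ppp1r13l, an inhibitor of p53 (5.601 and 5.36 to 23.5 and 20.2 FPKM), and Ddit4, an inhibitor of mTORC1 (54.6 and 52.5 to 197 and 163). Ppp1r13l shares its region with Cd3eap on the other side of the start, and their reads may not be told apart.

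The largest falls at 24 h were in genes of several roles. Sptssb, a small subunit of serine palmitoyltransferase, was at 17.2 and 17.8 FPKM at 0 h, 1.06 and 2.41 at 8 h, and 0.215 and 0.149 at 24 h (log2 change -3.97, SE 0.20, limma adjusted p = 4.74e-06). Sh2d4a, an SH2 domain adaptor gene, went from 27.3 and 28.2 FPKM to 2.67 and 3.13 (log2 change -2.88). Vil1, the actin bundler of microvilli, went from 23.0 and 25.7 to 3.03 and 3.36 (log2 change -2.59, SE 0.15, limma adjusted p = 6.96e-06), and Pllp, the membrane protein plasmolipin, from 10.3 and 9.52 to 1.64 and 2.19. The export pump gene Abcc3 fell from 36.4 and 37.2 to 8.58 and 9.60, the RhoA exchange factor gene Net1 from 72.5 and 78.4 to 20.1 and 20.9, the centromere gene Cenpm from 17.1 and 17.9 to 5.07 and 3.81, and the formin gene Fmnl1 from 21.0 and 21.4 to 5.52 and 5.78. At 8 h the largest falls added Mt2, a metallothionein (416 and 421 to 112 and 144 FPKM), Dscc1, of sister chromatid cohesion (9.35 and 8.00 to 2.23 and 2.95), and Ppl, the cornified envelope protein periplakin (31.8 and 34.8 to 9.85 and 15.6). Of these 11 genes, Sptssb, Vil1 and Abcc3 had a region with a 0 h peak only, and the rest kept a peak at 8 h.

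**Figure D5:**
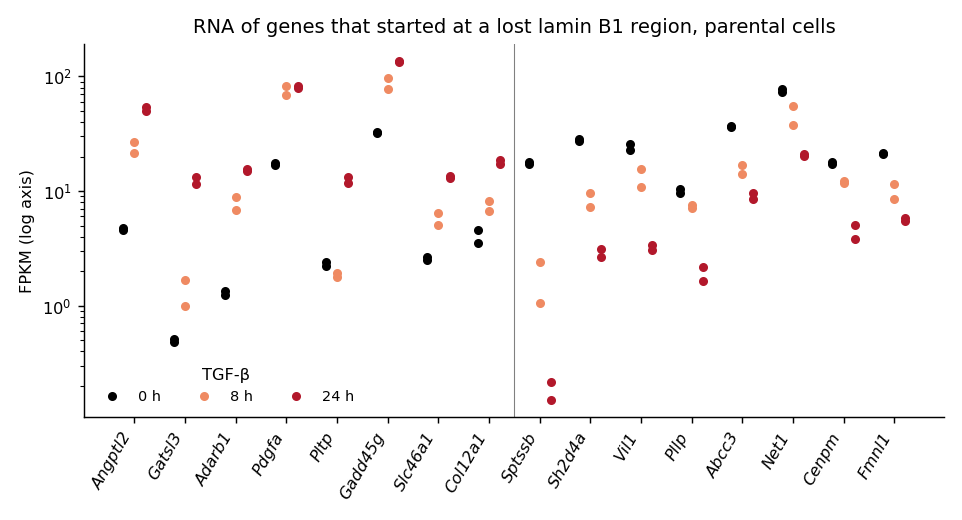
RNA of the 8 member genes with the largest rises and the 8 with the largest falls at 24 h in parental cells: each point is 1 library, in FPKM on a log axis, at 0 h, 8 h and 24 h of TGF-β. The genes were chosen among those whose replicates did not overlap, and they range from Angptl2 (4.75 and 4.60 to 53.8 and 50.2) to Fmnl1 (21.0 and 21.4 to 5.52 and 5.78).

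Lists of genes by function were read against 4.55%, the share of all placed genes that were members (989 of 21732), and were not tested as sets. Among placed genes that also passed the filter for the test the share was 7.66%. Counts of members that rose or fell in these lists stand beside 33.4% and 37.1% of all genes tested at 24 h. At 8 h these shares were 22.4% and 32.1%. List genes without a lost region were not compared, so a change cannot be read as particular to the members. In the mitochondrial ribosome list 12 of 76 placed genes (15.8%) were members, and 8 of the 12 fell at 24 h and none rose (6 fell and 1 rose at 8 h). Their median log2 change was -0.25 at 24 h, against -0.02 over all genes tested. Mrpl12 fell by 0.70 (from a mean of 174 ± 4.94 to 107 ± 0.486 FPKM, SD, n = 2), Mrps24 by 0.60 and Mrpl49 by 0.58, with limma adjusted p between 6.14e-06 and 3.47e-05. In the list of DNA damage response and repair 8 of 72 (11.1%) were members, and 6 fell and 1 rose at 24 h, with a median change of -0.56. Mre11a, a nuclease subunit of the complex that senses double-strand breaks, fell by 0.80 (19.6 ± 0.00523 to 10.9 ± 0.00163 FPKM), and Palb2, the partner of Brca2, fell by 0.74 (3.15 ± 0.346 to 1.48 ± 0.142). Ddb1, which serves nucleotide excision repair and a ubiquitin ligase, rose by 0.74 (295 ± 4.37 to 493 ± 5.26).

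The other lists held few members. General transcription and Mediator genes had 8 of 83 (9.64%), 4 higher and 2 lower at 24 h, led by Med21, a Mediator subunit, which rose by 0.50 (limma adjusted p = 0.00257), while Gtf2h2 and Polr2l fell by 0.40 and 0.32. Chromatin modifiers had 6 of 71 (8.45%), of which Dnmt1, the maintenance DNA methyltransferase, fell from 48.7 ± 2.53 to 25.6 ± 1.30 FPKM (log2 change -0.90, limma adjusted p = 2.7e-05), and none rose at 24 h. Tet2 and Kdm4b differed by -0.24 and -0.12 (limma adjusted p = 0.0547 and 0.0761). Splicing factors had 6 of 71, 1 higher (Ptbp3, by 0.56) and 3 lower, with Hnrnpa2b1 and U2af2 among them (-0.37 and -0.31). The lost region at Hnrnpa2b1 was 369 bp from a 24 h peak. Lamina and nuclear envelope genes had 4 of 43, and the nucleoporin genes Nup205 and Nup153 fell by 0.53 and 0.18, while Tor1a differed by -0.09 (limma adjusted p = 0.184). In this last list regions present at all times were at 15 of the 43 genes (34.9%). Over all placed genes this share was 10.1%, and over placed and tested genes 17.8%. A high share was not particular to this list: it was 28.2% for chromatin modifiers, 27.8% for TGF-β and BMP signalling, and 28.4% for ubiquitin ligases and proteasome genes.

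The lists of TGF-β signalling, EMT and the cell cycle held 1 to 4 members each. TGF-β and BMP signalling had 3 of 54 (5.56%), and all 3 rose at 24 h: Tgfb2 from 2.77 ± 0.0890 to 7.45 ± 0.420 FPKM (log2 change 1.16, limma adjusted p = 1.15e-05), Tgfb1 by 0.82 and Smad1 by 0.53. Tgfb1 and Tgfb2 encode ligands and Smad1 a signal carrier of the BMP branch. The region at Tgfb1 scored 145 at 0 h and 243 at 8 h. The mesenchymal list had 1 of 49, Tpm1, a tropomyosin, which rose from 465 ± 11.3 to 915 ± 12.1 FPKM (log2 change 0.97, limma adjusted p = 2.43e-06), and the epithelial list 2 of 44, Jup and Krt18, which rose by 0.44 and 0.26. The cell cycle list had 4 of 75: Cdkn2b, the TGF-β-induced CDK inhibitor, rose by 1.20, and the replication licensing gene Cdt1 and the phosphatase gene Cdc25a fell by 1.06 and 0.43. Ubiquitin ligases and proteasome genes had 3 of 67, of which Psmd3 fell by 0.19, Psma5 rose by 0.17 and Psma2 differed by 0.04 (limma adjusted p = 0.498). The list of other cell types had none of 27.

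Genes with a lost region inside the body, in an exon or intron away from the TSS, were read separately, a choice made after seeing the data. Of 541 such genes 467 were tested, and at 24 h 215 rose (46.0%, against 33.4% of all genes tested) and 149 fell (31.9%, against 37.1%). With quantile normalization the counts were 226 and 142, where 4079 and 3895 of the 11309 genes tested were called. Their median log2 change was 0.11, their median level 13.6 FPKM at 0 h and their median length 30.1 kb, against 16.0 kb for all placed genes, and the part of length and level in this share was not tested.

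Genes with the most lost regions in the body were mostly on chromosomes 15 and 19, and those named here kept a region present at all times at the TSS. Myh9 held 12 lost regions and rose from 158 and 176 FPKM at 0 h to 255 and 270 at 8 h and 345 and 339 at 24 h (log2 change 1.03, SE 0.06, limma adjusted p = 6.39e-06). Plec held 8 and was at 34.3 and 41.8 FPKM at 0 h and 48.0 and 45.5 at 24 h (log2 change 0.30, SE 0.09, limma adjusted p = 0.0244). Wnt7b, a Wnt ligand gene with 5, rose from 42.4 and 42.3 FPKM to 82.2 and 74.3 (log2 change 0.87). Macrod1, an ADP-ribose hydrolase gene with 9 in 141 kb, fell by 0.48, and Dagla and Myrf, with 5 each, fell by 0.60 and 0.57. The genes with many lost regions thus moved in both directions.

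In control shRNA cells, 834 member genes were tested. At 8 h 552 (66.2%) were called, against 64.3% of 11450 genes, 137 higher (16.4%, against 19.4%) and 415 lower (49.8%, against 44.9%). At 24 h 621 (74.5%, against 70.7%) were called, 208 higher (24.9%, against 25.5%) and 413 lower (49.5%, against 45.1%). Here scaling mattered. The median log2 change of all genes tested was -0.14 at 8 h and -0.13 at 24 h, beside -0.19 and -0.17 for the member genes. After quantile normalization 201 members were higher and 308 lower at 8 h, and 262 and 324 at 24 h, with member medians of -0.07 and -0.04. Under the same scaling 3082 of all genes were higher and 3624 lower at 8 h, and 3900 and 3901 at 24 h, with medians of -0.02 and -0.0035.

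Lamin B1 KD cells were compared with control cells at each time. At 0 h 171 member genes (20.5%, against 19.7% of all genes tested) were called, 93 higher (11.2%, against 10.6%) and 78 lower (9.35%, against 9.09%). At 8 h 297 (35.6%, against 35.8%) were called, 154 higher (18.5%, against 19.3%) and 143 lower (17.1%, against 16.5%). At 24 h 232 (27.8%, against 28.3%) were called, 140 higher (16.8%, against 16.8%) and 92 lower (11.03%, against 11.5%). With only the groups compared in the fit, the 0 h and 24 h counts were 43 and 52, where 732 and 710 of the 11450 genes were called. Leaving out 1 library also moved the counts by over 1.5 times, to 102, 37 and 46 at 0 h without control replicate 2, KD replicate 1 and KD replicate 2, to 179 or 184 at 8 h without any 1 library, and to 87 and 99 at 24 h without control replicate 1 or 2. In the same order 1702, 689 and 738 of all genes were called at 0 h, 2330 to 2440 at 8 h, and 1205 and 1433 at 24 h. With all libraries the shares of member genes were near those of all genes.

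Sptssb, Pllp and Vil1 were higher in KD than in control cells at 0 h. In parental cells they were among the largest falls at 24 h of TGF-β. Sptssb was at 7.79 and 5.47 FPKM in control cells and 19.01 and 16.5 in KD cells at 0 h (log2 difference 1.31, SE 0.13, limma adjusted p = 0.000468). Pllp was at 7.38 and 5.84 against 16.0 and 15.4 at 0 h (1.14, SE 0.16, limma adjusted p = 0.00219) and was higher in KD cells at 8 h too. Vil1 was at 16.2 and 12.98 against 25.9 and 26.5 (0.81, limma adjusted p = 0.0118). In untreated parental cells Sptssb was at 17.2 and 17.8 FPKM, Pllp at 10.3 and 9.52, and Vil1 at 23.0 and 25.7. For each gene these values were above both control shRNA libraries, and for Sptssb and Vil1 they lay near the KD values. Whether the control or the KD cells had departed from parental cells was not tested.

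Lower in KD cells at 0 h were Mccc2, an enzyme of leucine breakdown (12.7 and 11.2 FPKM in control cells, 5.22 and 4.89 in KD cells), Chd3, a remodeller of the NuRD complex (52.3 and 49.4 against 27.1 and 27.0), Mt2 (448 and 363 against 249 and 226) and Gnpda1, of hexosamine metabolism (21.9 and 14.9 against 10.7 and 10.1). Mccc2 was lower at 8 h and 24 h as well, by 0.98 and 0.85 on the log2 scale (limma adjusted p = 0.000323 and 0.00102). At 8 h the largest differences were higher Csdc2, an RNA-binding protein gene (1.44 and 1.502 against 4.79 and 5.24), Pllp, Spns2, the sphingosine-1-phosphate exporter (26.8 and 28.4 against 57.2 and 55.4), and B3gnt3, a glycosyltransferase gene (24.8 and 24.8 against 43.3 and 43.9). The lower ones at 8 h were the cell-cycle factor Mybl2 (8.20 and 8.23 against 3.69 and 3.81) and the DNA methylation genes Uhrf1 (26.2 and 24.8 against 12.4 and 13.1) and Dnmt1 (29.1 and 27.9 against 16.4 and 16.1). Uhrf1 and Dnmt1, which act together in maintenance methylation, both had a lost region with peaks at 0 h and 8 h, fell by 1.15 and 0.65 on the log2 scale at 8 h in control cells, and were lower in KD cells than in control cells at 8 h.

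At 24 h Csdc2, Spns2, the adhesion gene Mpzl2 (8.24 and 9.58 FPKM against 20.8 and 20.2) and the zinc importer gene Slc39a4 (4.53 and 4.84 against 7.31 and 11.9) were highest over control, and Mccc2, Uhrf1, the mitotic kinesin gene Kif23 (11.4 and 10.6 against 6.73 and 5.97) and the importin gene Ipo7 (97.0 and 95.1 against 79.0 and 43.6) lowest. The Ipo7 difference rests on KD libraries that lay far apart. The 8 h response differed between KD and control cells in 32 member genes (3.84%, against 4.06% of all genes tested), 15 with a higher value in KD cells (1.80%, against 2.45%) and 17 with a lower one (2.04%, against 1.61%). Of the 834, 16 were called without control replicate 1 at 0 h, 111 without control replicate 2 at 0 h, and 1 or 2 without any other of the 8 libraries, where 333, 1485 and 29 to 57 of all genes were called.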

How the data were processed

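Lamin B1 and ATAC peaks were called by the authors with MACS on mm9, 1 library per time point, and the deposited lists give each peak's position and score, with no reads, so their depth is unknown. The authors' FPKM values came without a header line, and columns were taken in the order of the deposited descriptions. Per the labels, Bowtie, TopHat and Cufflinks were used. Relative depth estimated from low FPKM values spanned 92.8 to 116% (parental) and 78.8 to 112% (shRNA), and replicates correlated at 0.960 or more. Hi-C data were not used here.

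Regions were merged in Python 3.11.15. Gene 5′ ends were taken as TSS from GENCODE M1 on NCBIM37. Of 24892 symbols, 21213 matched directly, 768 by an older symbol, 818 were ambiguous and 2093 had no match. RNA was tested as log2(FPKM + 1) with limma 3.58.1 in R 4.3.3, all libraries of a table in 1 fit (6 parental, 12 shRNA), with a trend and Benjamini-Hochberg adjustment. The test was tried on simulated data. The study's methods call the 2 samples of a group biological replicates, and p-values measure the spread between them. All time points of a cell type share the same 0 h libraries, and KD and control comparisons share a fit.

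The regions, gene lists and tests were chosen with earlier results of these data known. Named genes were those at the 10 highest 0 h scores, the called genes with the largest changes whose replicates did not overlap and whose higher mean was at least 5 FPKM (8 rises and 8 falls at 24 h, 5 and 5 at 8 h, 4 and 4 per KD comparison), the 3 largest changes of each list, and Lmnb1. Of the genes it names in KD cells at 0 h, 1 is not reported here. Ctsw, Fibp and the genes with the most lost regions in the body were chosen after their values were seen. Alternatives for genes were quantile normalization, 0.1 in place of 1 as the added constant, all genes unfiltered, the replicate number as a block, fits restricted to the compared groups and leaving out each library. Those for regions were higher-scoring peaks, equal list lengths, other merging, distance and TSS rules and, added after seeing the data, leaving out chromosomes 15 and 19 and, for genes, regions with a 24 h peak within 1000 bp.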

Additional observations from a re-analysis of the deposited data

Results flagged for a closer look

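In 8 named genes at lost regions the response to 8 h of TGF-β differed between KD and control cells by the test of the difference itself (limma, adjusted over all genes). It was lower in KD cells for Uhrf1 (-0.83 on the log2 scale, SE 0.16, adjusted p = 0.0315), Cdt1 (-0.77, 0.0495), Dnmt1 (-0.76, 0.0461), Mybl2 (-0.62, 0.0482) and Net1 (-0.39, 0.0315), with the adjusted p as the second value. These 5 genes fell in control cells, by 1.15, 0.81, 0.65, 1.04 and 0.90 in the same order, and the 8 h values in KD cells were -1.98, -1.59, -1.41, -1.67 and -1.29 against 0 h (no test of their own). The response was higher in KD cells for Csdc2 (0.97, adjusted p = 0.0108), which rose by 0.86 in control cells and was 1.83 higher at 8 h in KD cells, for Mpzl2 (0.50, 0.0278), which fell by 1.30 in control cells and differed by -0.80 in KD cells, and for B3gnt3 (0.48, 0.00613), which fell by 0.38 in control cells and differed by 0.10 in KD cells. Since the count of such calls among member genes was 1 or 2 without any of 6 of the 8 libraries, at least 6 of these 8 calls were lost without any of those 6 libraries.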

How the results depend on the processing

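Of 144 alternatives over 13 results, 107 left the value within its spread or 1.5 times the count. With only peaks at or above the median score, 1056 regions were lost, and 65.6% of them were at a TSS, with 59.2% G/C and ATAC overlap of 48.01% at 0 h and 70.5% at 24 h. With the 3 lamin B1 lists cut to equal length these values were 53.1%, 58.3%, 35.4% and 55.6%, and without chromosomes 15 and 19 they were 56.1%, 58.5%, 36.4% and 58.2%. With a TSS window of 2500 bp the TSS share was 56.8%. ATAC overlap at 24 h was 28.2% with equal ATAC lists and 53.8% with ATAC peaks within 500 bp.

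For member genes, the difference in 8 h response was called in 18 genes with no filter. A fit of only the groups compared called 43 (KD at 0 h) and 52 (KD at 24 h). Leaving out 1 library gave 361 to 455 calls at 8 h and 520 to 563 at 24 h in parental cells, 475 to 541 and 552 to 602 in control shRNA cells, 37 to 171, 179 to 184 and 87 to 318 for KD at 0 h, 8 h and 24 h, and 1 to 111 for the difference in response. The cause of these shifts was not tested beyond the fewer samples.

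The replicate numbers of the shRNA libraries were not used as pairs in the main fit. Correlations of replicate differences were -0.14 and -0.11 for KD and control at 0 h and 8 h. They were 0.01 and 0.02 for the control time comparisons. For KD and control at 24 h the correlation was 0.37, so a shared replicate effect may be present there. With the replicate number as a block (a replicate block), 552 and 612 member genes were called in control cells, 161, 292 and 214 in KD against control, and 16 for the difference in response. The parental columns carry no number. One ChIP and 1 ATAC library per time point leave the peak values without a replicate error, and a peak just under a list's lowest score counts as absent.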
